A study of Mus musculus with 10 samples.

Results

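The mevalonate branch, the part of isoprenoid and cholesterol synthesis that runs from acetoacetyl-CoA to farnesyl diphosphate, geranylgeranyl diphosphate and squalene, was followed through 9 of its enzymes: *Acat2*, *Hmgcs1*, *Mvk*, *Pmvk*, *Mvd*, *Idi1*, *Fdps*, *Ggps1* and *Fdft1*. They were taken by gene name from a table of 27024 named rows, and all 9 were in it. The enzymes were named by their place in the pathway, but the pathway was chosen by the FPKM differences between StcE and saline in these same samples, so those differences are given below as a description of the enzymes. No p-value is given for an enzyme, and which of them met the rule applied to all genes is stated as a description only. Values are FPKM, that is, sequenced fragments divided by gene length and by sample depth, so levels of different genes can be set side by side.

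bEnd.3 is an immortalised, wild-type (WT) mouse brain endothelial cell line. StcE is a bacterial protease selective for mucin-domain glycoproteins, which are densely O-glycosylated, and the study used it to ask how brain endothelial cells respond when such glycoproteins are degraded. Cells in serum-containing growth medium were given 5 nM StcE or saline, and RNA was collected at 16 h. There were 5 StcE samples (replicates 1, 2, 3, 5 and 6) and 5 saline samples (replicates 1 to 5). All samples come from a single line, none of the 10 received an inactive enzyme, and nothing in the labels says that replicates came from separate cultures, so the spread between them may be technical. In bulk RNA scaled between samples, fewer cells and less RNA per cell cannot be told apart.

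Depth recovered from the values was 21922594 to 29017310 fragments per sample with saline (median 23811805) and 21864604 to 33147402 with StcE (median 26255302). The endothelial label held, since all 10 endothelial markers examined were among the tested genes and together summed to 1703 to 1838 FPKM with saline and 1655 to 1735 with StcE. Of the 10 markers 5 were lower and 1 higher after StcE (limma adjusted p under 0.05), where 6.41% of all tested genes were lower and 5.52% higher, from *Tek*, an angiopoietin receptor (log2 fold change -0.24), to *Egfl7*, a secreted endothelial factor (0.17). Of 13 markers of mural, glial, neuronal, leukocyte and epithelial cells in the table, only the smooth muscle actin *Acta2* reached a mean of 1 FPKM (3.08 with saline, 3.19 with StcE). Summed over the list these markers gave 2.18 to 5.31 FPKM with saline and 2.93 to 4.69 with StcE, and *Des*, *Aqp4*, *Rbfox3*, *Snap25*, *Ptprc*, *Cx3cr1* and *Epcam* were listed at 0 in every saline sample and at no more than 0.0283 FPKM in any StcE sample. Their part in the results was not tested.

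The branch converts acetyl-CoA into the isoprenoid units from which cholesterol, dolichol, ubiquinone and the lipid anchors of small GTPases are made. Its genes are classical targets of SREBP2, a transcription factor held in the endoplasmic reticulum when sterols are plentiful and released to the nucleus when they fall, where it acts with NF-Y and Sp1 at promoters. Brain endothelial cells, like other cells, can meet their need for sterol by synthesis or by lipoprotein uptake.

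The sequences upstream of the start sites were examined because 7 of these genes were higher after StcE. A RefSeq table of promoter windows (GRCm38.p6, 250 bases before to 50 after the start) held 7 of the 9 enzymes, in 8 windows. The sterol regulatory element TCACNCCAC was searched on both strands and occurred in 1 of these windows, that of *Hmgcs1*, 137 to 129 bases before the start, against 1.24% of all 32851 windows. CCAAT, the letters bound by NF-Y, stood in 6 of the 8 enzyme windows (37.41% of all windows), and at least 2 copies stood in 5 of them, those of *Ggps1*, *Hmgcs1*, *Idi1*, *Mvd* and *Mvk* (11.7% of all windows). The Sp1 letters GGGCGG stood in 5 windows (35.66% of all windows, 65.47% of the windows of tested genes), and the E-box CACGTG in none (7.15% of all windows). The upstream bases of 3 enzymes are printed because they show the only match to the sterol element, the window with the most CCAAT copies and the enzyme that did not pass the test. Each reads 5′ to 3′ on the strand of the gene up to the base before the start, with matches to TCACNCCAC and CCAAT (or its reverse complement) in capitals.
Hmgcs1, chr13:119690101-119690350, plus strand: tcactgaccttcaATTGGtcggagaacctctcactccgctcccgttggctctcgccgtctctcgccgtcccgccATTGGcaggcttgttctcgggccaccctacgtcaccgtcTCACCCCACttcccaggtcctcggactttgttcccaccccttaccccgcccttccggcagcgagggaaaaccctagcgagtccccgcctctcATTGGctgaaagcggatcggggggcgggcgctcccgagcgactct
Mvk, chr5:114444019-114444268, plus strand: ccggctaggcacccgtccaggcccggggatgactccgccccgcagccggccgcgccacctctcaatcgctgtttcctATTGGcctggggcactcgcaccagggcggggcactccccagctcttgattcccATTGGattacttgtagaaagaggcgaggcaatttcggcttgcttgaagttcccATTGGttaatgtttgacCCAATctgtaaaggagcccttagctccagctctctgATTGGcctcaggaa
Ggps1, chr13:14063489-14063738, minus strand: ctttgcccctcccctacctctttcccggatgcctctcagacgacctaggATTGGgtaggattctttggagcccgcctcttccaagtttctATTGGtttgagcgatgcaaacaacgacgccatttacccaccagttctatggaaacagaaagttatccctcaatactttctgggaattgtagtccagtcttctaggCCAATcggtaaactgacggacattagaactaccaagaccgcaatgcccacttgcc
CCAAT copies were thus present both before genes that were higher after StcE and before *Ggps1*, which did not pass the test.

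With saline the enzymes were moderately expressed, and their order of levels did not follow the order of the reactions. *Acat2* had the highest mean, 17.96 FPKM, above 72.1% of the 11062 tested genes, and *Mvk* followed at 12.4 FPKM. The saline values of *Acat2* and *Mvk* did not overlap, nor did those of *Mvk* and *Hmgcs1* (7.55 FPKM). *Hmgcs1*, *Ggps1* (7.16 FPKM) and *Pmvk* (7.09 FPKM) overlapped from each to the next in that order, as did *Fdft1* (5.86 FPKM), *Mvd* (4.72 FPKM) and *Idi1* (4.69 FPKM). The *Fdps* row was far below all of these at 0.0816 FPKM. However, 81.6% of its coding transcript is shared with an overlapping gene, as described below. Whether this row holds all fragments of *Fdps* was not tested, so its level is not a safe measure of the gene.

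After StcE, 7 of the 8 enzymes expressed above the minimum met the rule by which genes were called higher (limma adjusted p under 0.05 over all genes tested) and 0 were called lower. By the same rule 5.52% of all tested genes were called higher and 6.41% lower. The count is no test of the branch, which was chosen on this contrast, and nothing further is read from it. The median log2 fold change of the 8 enzymes on the log2(FPKM + 1) scale was 0.70, and it was -6.6e-04 over all tested genes, whose middle 95% lay between -0.23 and 0.25. The 8 values ran from 0.06 for *Ggps1* to 1.41 for *Idi1*. For 8 of the 9 enzymes every StcE value lay above every saline value, a pattern found in 4.85% of all tested genes, and the opposite pattern, found in 5.8%, occurred in none of the 9. The summed level of the 9 enzymes was 67.5 ± 2.48 FPKM (SD, n = 5) with saline and 118.2 ± 1.91 FPKM (SD, n = 5) with StcE, a ratio of 1.75.

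**Figure D1:**
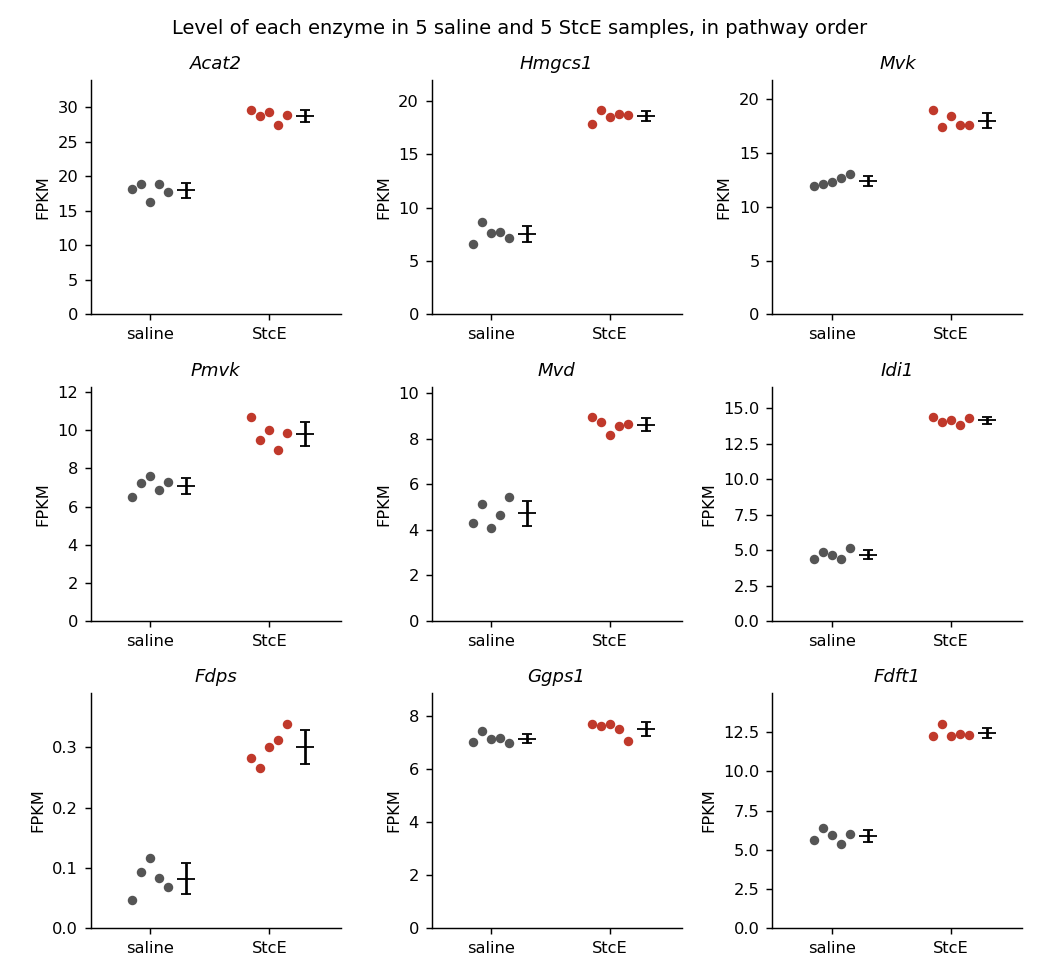
FPKM of each enzyme (vertical axes, each from 0) in the 5 saline and 5 StcE samples, 1 point per sample, with the mean and SD beside the points. Every StcE point lies above every saline point except for *Ggps1*, and *Fdps* is plotted on a scale that ends below 0.4 FPKM.

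The branch opens with the enzymes that build HMG-CoA. *Acat2* (chromosome 17, 12942890 to 12960747), the cytosolic thiolase that condenses acetyl-CoA into acetoacetyl-CoA, had 18.2, 18.8, 16.3, 18.9 and 17.7 FPKM in saline replicates 1 to 5 and 29.5, 28.7, 29.2, 27.3 and 28.9 FPKM in StcE replicates 1, 2, 3, 5 and 6. The lowest StcE sample stood well above the highest saline sample, and the ratio of the means was 1.6, with a log2 fold change of 0.65 (standard error 0.0387). *Hmgcs1* (chromosome 13, 119690379 to 119708260), the synthase that adds a further acetyl unit to make HMG-CoA, had 6.64, 8.69, 7.58, 7.72 and 7.11 FPKM with saline and 17.9, 19.1, 18.5, 18.8 and 18.7 FPKM with StcE. Its ratio of means was 2.46 and its log2 fold change 1.20 (standard error 0.0531). Saline replicates of *Hmgcs1* spread more widely than StcE replicates, with a coefficient of variation of 10.2% against 2.53%. The difference for *Hmgcs1*, 11.04 FPKM, was the largest of the 9 in absolute level and was followed by the 10.8 FPKM of *Acat2*.

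The middle of the branch phosphorylates mevalonate and decarboxylates the product to isopentenyl diphosphate. The kinases *Mvk* and *Pmvk* had the smallest ratios of the 7 enzymes called, and *Mvd* stood above *Acat2*. *Mvk* (chromosome 5, 114444269 to 114460591), mevalonate kinase, had 11.9, 12.2, 12.3, 12.7 and 13.03 FPKM with saline and 18.97, 17.4, 18.5, 17.7 and 17.6 FPKM with StcE, a ratio of means of 1.45 and a log2 fold change of 0.50 (standard error 0.0318). *Pmvk* (chromosome 3, 89454541 to 89469013), phosphomevalonate kinase, had 6.51, 7.23, 7.58, 6.85 and 7.28 FPKM with saline and 10.7, 9.48, 10.0, 8.98 and 9.86 FPKM with StcE. Its ratio of means was 1.38 and its log2 fold change 0.42 (standard error 0.0470). *Mvd* (chromosome 8, 122433601 to 122443422), the decarboxylase, had 4.32, 5.11, 4.08, 4.67 and 5.42 FPKM with saline and 8.94, 8.72, 8.16, 8.54 and 8.64 FPKM with StcE, a ratio of means of 1.82 and a log2 fold change of 0.75 (standard error 0.0586). These are the 3 enzymes whose coding transcripts share no stretch of at least 150 bases at 95% identity or more with another annotated gene.

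*Idi1* (chromosome 13, 8885501 to 8892451) isomerises isopentenyl diphosphate to dimethylallyl diphosphate, the primer for chain building, and had the largest log2 fold change of the tested enzymes. It had 4.37, 4.89, 4.65, 4.39 and 5.15 FPKM with saline and 14.4, 14.01, 14.2, 13.9 and 14.3 FPKM with StcE. The ratio of the means was 3.02 and the log2 fold change 1.41 (standard error 0.0383), rank 4 of all tested genes from the highest. The coefficient of variation of *Idi1* was 1.55% among the StcE replicates, against 7.14% with saline. Near-identical sequence in other genes covers 33.3% of its transcript, and the row of *Gm13502*, a processed pseudogene of *Idi1*, stood at 0.0637 to 0.433 FPKM with saline and 0.435 to 0.952 FPKM with StcE, below *Idi1* in every sample. Its paralog *Idi2* was listed at 0 in every saline sample.

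**Figure D2:**
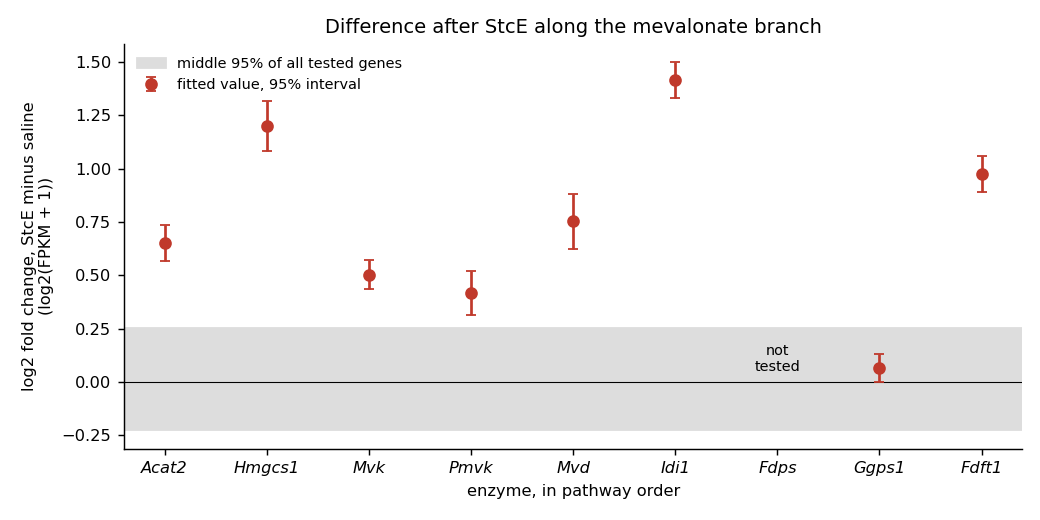
Log2 fold change, StcE minus saline, on the log2(FPKM + 1) scale (vertical axis) for each enzyme in pathway order, with its 95% interval from limma and the middle 95% of all tested genes as a grey band (-0.23 to 0.25). *Ggps1* (0.06) is the only tested enzyme inside the band, and *Fdps* was not tested. The intervals do not allow for the choice of the branch on this contrast and are no test.

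*Fdps* (chromosome 3, 89093588 to 89101959), which joins isopentenyl units into farnesyl diphosphate, had a mean FPKM under the minimum and was not tested. It had 0.0469, 0.0937, 0.116, 0.0829 and 0.0685 FPKM with saline and 0.283, 0.267, 0.302, 0.312 and 0.339 FPKM with StcE. These values rest on 6 to 13 fragments per saline sample and 28 to 46 per StcE sample, 44 and 185 in all. The 2 groups did not overlap and the ratio of the means was 3.68. On the annotation used here, 81.6% of its coding transcript is shared on the same strand with *Gm43738*, a gene that overlaps *Fdps*, and 67.3% of the 150-base windows of the *Fdps* transcript are identical in *Gm43738*. The *Gm43738* row held 0 fragments in 9 samples and 1 in StcE replicate 6. How fragments that fall on more than 1 gene were counted is not given in the sources used here.

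Near-identical copies outside the locus include the processed pseudogenes *Gm3571*, at up to 98.9% identity over 76.8% of the *Fdps* transcript, and *Gm5873*, at up to 96.7% over 76.6%. A window of 150 coding bases shows how close the copy is, with the 2 bases that differ in capitals (*Fdps* transcript bases 332 to 481, GENCODE vM21).
Fdps: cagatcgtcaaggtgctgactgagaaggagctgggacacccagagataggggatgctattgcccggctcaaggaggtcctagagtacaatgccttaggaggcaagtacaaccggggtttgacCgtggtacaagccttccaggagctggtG
Gm3571: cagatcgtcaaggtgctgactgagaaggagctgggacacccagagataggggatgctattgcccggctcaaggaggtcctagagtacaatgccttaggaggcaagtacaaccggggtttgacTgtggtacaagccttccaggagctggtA
The *Gm3571* row had 2.17, 2.08, 2.16, 1.85 and 2.135 FPKM with saline and 6.30, 6.59, 5.71, 4.44 and 5.27 FPKM with StcE. Every StcE value was above every saline value. The log2 fold change of the pseudogene was 1.10 (standard error 0.0791), rank 10 of all tested genes from the highest. Its fragments may come from *Fdps*, which was chosen with the branch, so no p-value is given for it. *Gm5873*, not tested, had 0.286 to 0.740 FPKM with saline and 0.797 to 1.24 FPKM with StcE. In fragments, *Fdps* and these pseudogenes together held 60 to 100 per saline sample and 205 to 300 per StcE sample. Whether fragments in the pseudogene rows came from *Fdps* was not tested.

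**Figure D3:**
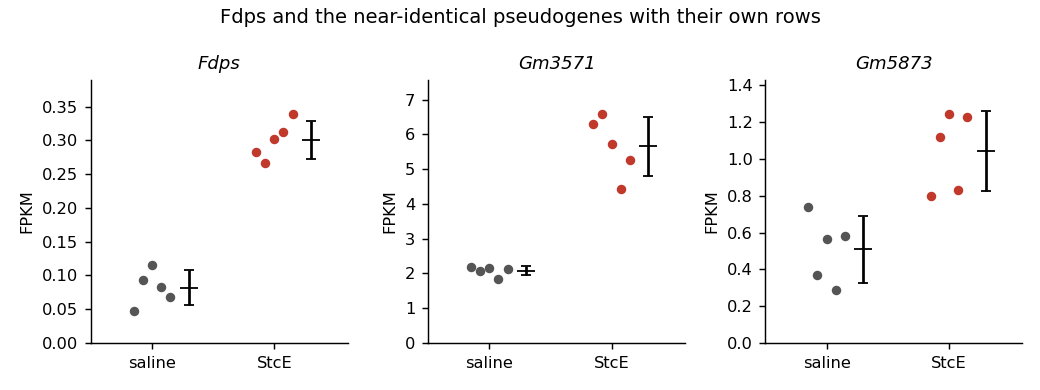
FPKM (vertical axes, each from 0) of *Fdps* and of the pseudogenes *Gm3571* and *Gm5873* in the 5 saline and 5 StcE samples, 1 point per sample, with the mean and SD beside the points. In all 3 rows every StcE point is above every saline point, and *Gm3571* reaches the highest level (4.44 to 6.59 FPKM with StcE).

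Beyond farnesyl diphosphate the branch divides, and the enzymes on its arms differed. *Ggps1* (chromosome 13, 14050659 to 14063488) extends farnesyl to geranylgeranyl diphosphate, a lipid anchor of Rab GTPases. It had 7.01, 7.45, 7.14, 7.18 and 6.999 FPKM with saline and 7.70, 7.63, 7.71, 7.54 and 7.08 FPKM with StcE. The groups overlapped only through StcE replicate 6, which lay among the saline samples. The other StcE samples (7.54 to 7.71 FPKM) lay above the highest saline sample (7.45 FPKM). The log2 fold change of *Ggps1* was 0.06 (standard error 0.0295, 95% interval -2.0e-04 to 0.13), which did not pass the threshold. Without StcE replicate 6 it was 0.08, which did not pass either. *Fdft1* (chromosome 14, 63145150 to 63179578), squalene synthase, commits farnesyl diphosphate to sterols. It had 5.64, 6.40, 5.93, 5.37 and 5.98 FPKM with saline and 12.3, 13.04, 12.3, 12.4 and 12.3 FPKM with StcE, a ratio of means of 2.13 and a log2 fold change of 0.97 (standard error 0.0386). *Fdft1* was below *Ggps1* in every saline sample and above it in every StcE sample, and the *Fdft1* to *Ggps1* ratio of FPKM went from 0.819 ± 0.0450 (SD, n = 5) to 1.66 ± 0.0669 (SD, n = 5).

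**Figure D4:**
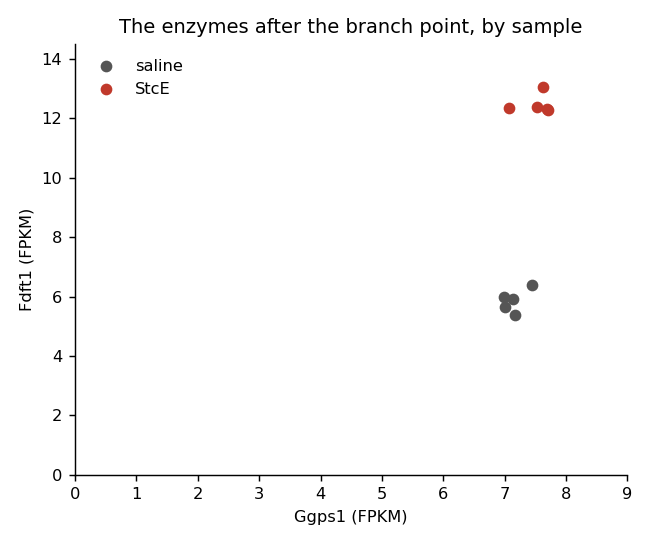
*Fdft1* (vertical axis, FPKM) against *Ggps1* (horizontal axis, FPKM), 1 point per sample. The saline samples (*Fdft1* 5.37 to 6.40) and the StcE samples (12.3 to 13.04) separate along the *Fdft1* axis and overlap along the *Ggps1* axis.

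Overlapping genes touch some of these values. The *Fdft1* gene shares 18.3% of its exon length with *Ctsb*, cathepsin B, on the opposite strand, and *Ctsb* moved the other way, from 85.1 ± 1.56 FPKM (SD, n = 5) to 80.4 ± 1.37 FPKM (SD, n = 5), a log2 fold change of -0.08 (limma adjusted p = 0.030). *Ggps1* shares 5.4% with *Arid4b*, *Hmgcs1* 12.1% with the antisense gene *Gm48342* and *Idi1* 9.2% with *Gm48574*, each on the opposite strand. *Arid4b* did not pass the test (log2 fold change 0.04), and *Gm48342* was listed at 0 in every saline sample and at most 0.112 FPKM with StcE. For *Acat2*, near-identical sequence in the paralog *Acat3* covers 65.6% of the transcript, but *Acat3* stood at only 0.271 to 0.665 FPKM over all samples. *Tcp1*, a chaperonin subunit whose annotated transcripts share 19.8% of the *Acat2* transcript, did not pass the test (84.0 ± 1.79 and 87.3 ± 2.96 FPKM, SD, n = 5 each). The libraries kept strand, but whether the counting used it is not given in the sources used here.

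StcE reordered the levels within the branch. *Acat2* stayed highest at 28.7 FPKM, *Hmgcs1* (18.6 FPKM) overlapped with *Mvk* (18.01 FPKM), and *Idi1* (14.1 FPKM) and *Fdft1* (12.5 FPKM) stood above *Pmvk*, *Mvd* and *Ggps1* with no overlap between neighbours. The share of the summed FPKM went from 6.9% to 12% for *Idi1* and from 11.2% to 15.7% for *Hmgcs1*, and from 10.6% to 6.4% for *Ggps1*. The *Idi1* to *Mvk* ratio went from 0.378 ± 0.0225 (SD, n = 5) to 0.786 ± 0.0244 (SD, n = 5). Among the 8 tested enzymes the median coefficient of variation was 6.25% with saline and 3.13% with StcE, while over all tested genes it was 4.93% and 5.02%. The coefficient was larger with saline for 5 of the 8, among them *Mvd* (11.7% against 3.33%), and for 49.5% of all tested genes. Relative counting error falls as counts rise, and *Mvd* held 199 to 245 fragments per saline sample and 391 to 556 per StcE sample. How much of the difference in spread goes with the higher counts was not tested.

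Replicates of a group also differ from one another, and this spread was not used in choosing the enzymes. After the group means were removed, the median Pearson r between pairs of the 9 enzymes over the 10 samples was 0.216 on the log2(FPKM + 1) scale, with 27 of 36 pairs above 0. Between the 8 tested enzymes the median was 0.230, and between these enzymes and the 11054 other tested genes it was -0.008, with a quartile range of -0.298 to 0.281. The pairs share their libraries and scaling. *Mvd* and *Idi1* (r = 0.720), *Idi1* and *Fdft1* (r = 0.624) and *Mvk* and *Pmvk* (r = 0.619) were the closest pairs, and *Acat2* and *Fdps* (r = -0.391) the farthest apart. The median over all 36 pairs was 0.0755 without saline replicate 1 and 0.0724 without saline replicate 2. The genes outside the branch whose deviations were most like the mean of the tested enzymes over the 10 samples were *Lamtor2* (r = 0.959), *Gm16897* (r = 0.945), *Rpl28* (r = 0.942), *Txndc17* (r = 0.940) and *Sar1b* (r = 0.933), none of them a gene of the lists used here.

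Genes on either side of the branch were examined by list. Upstream, *Acly*, which releases cytosolic acetyl-CoA from citrate, rose from 51.0 ± 1.30 to 62.9 ± 1.598 FPKM (SD, n = 5 each; log2 fold change 0.30, limma adjusted p = 2.2e-05). On a list of acetyl-CoA supply, ketone body and paralog genes, of which 5 were tested, *Acly* was the 1 that rose and *Acaa2*, a mitochondrial thiolase, was the 1 that was lower (log2 fold change -0.14, limma adjusted p = 0.031). Over all tested genes 5.52% were higher and 6.41% lower. *Acat1*, the mitochondrial counterpart of *Acat2*, did not pass the test (24.5 ± 1.02 and 23.8 ± 0.941 FPKM, SD, n = 5 each; log2 fold change -0.04). The list's median log2 fold change was -0.04. *Aacs*, the cytosolic acetoacetyl-CoA synthetase, was not on the list and was looked up afterwards, and it was higher as well (26.5 ± 1.37 and 35.1 ± 1.1499 FPKM, SD, n = 5 each; log2 fold change 0.40, limma adjusted p = 4.4e-05).

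Downstream, a list of 18 genes for other ends than sterols was examined. Their products use dimethylallyl, farnesyl or geranylgeranyl diphosphate, or process or escort the proteins that carry these lipids. They cover protein farnesylation and geranylgeranylation and the making of ubiquinone, dolichol, haem A, menaquinone and modified tRNA. All 18 were tested and 1 was higher, a share close to the 5.52% of all tested genes, and 0 were lower, where 6.41% of all tested genes were. The median log2 fold change was -0.01, with values from -0.06 (*Icmt*, which methylates prenylated proteins) to 0.16 (*Pdss1*, which makes the ubiquinone side chain, limma adjusted p = 0.10). The gene called was *Rabggtb*, a subunit of Rab geranylgeranyl transferase, at 32.6 ± 1.44 and 35.4 ± 0.985 FPKM (SD, n = 5 each; log2 fold change 0.12, limma adjusted p = 0.036). It was named after its value was seen, and its groups overlapped.

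The enzymes from squalene to cholesterol, the arm entered through *Fdft1*, were mostly higher too. Of 11 tested, 10 were higher and 0 lower, where 5.52% of all tested genes were higher and 6.41% lower. The median log2 fold change was 0.80. Values ran from 0.05 for *Ebp*, the sterol isomerase, which did not pass, to 1.57 for *Cyp51*, the lanosterol demethylase. That list too was chosen with results of these samples known, and no difference between it and the mevalonate enzymes was tested.

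**Figure D5:**
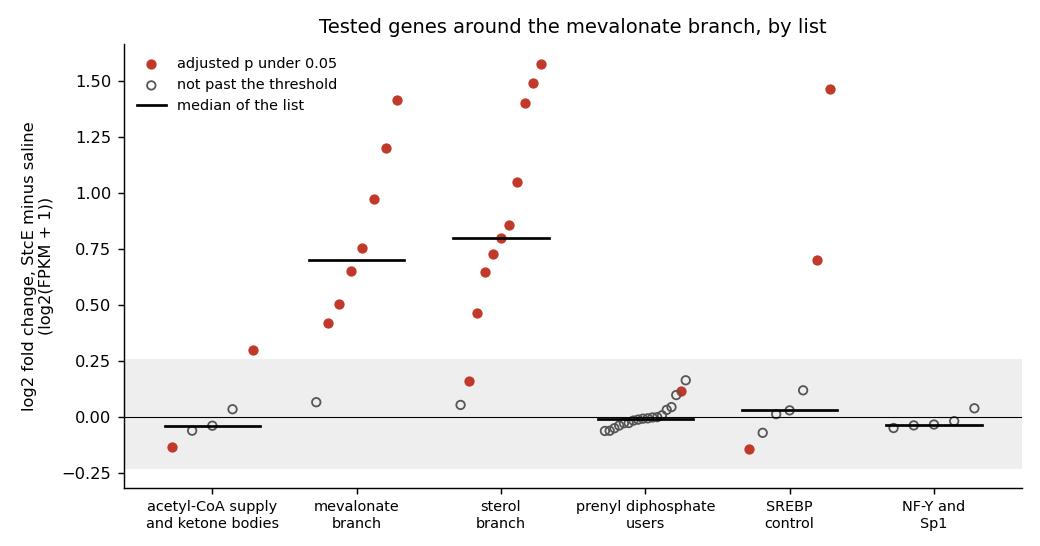
Log2 fold change, StcE minus saline, on the log2(FPKM + 1) scale (vertical axis) of the tested genes of each list, 1 point per gene, filled where the limma adjusted p was under 0.05, with the list's median as a bar and the middle 95% of all tested genes as a grey band (-0.23 to 0.25). The medians are 0.70 for the mevalonate branch, 0.80 for the sterol branch and -0.01 for the list of genes downstream for other ends than sterols (labelled prenyl diphosphate users).

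Among the genes that control the pathway, *Insig1*, a sterol-regulated retention factor, rose from 12.99 ± 0.742 to 37.5 ± 1.33 FPKM (SD, n = 5 each; log2 fold change 1.46, limma adjusted p = 3.8e-10). *Srebf2*, which encodes SREBP2, rose from 17.8 ± 0.664 to 29.6 ± 1.49 FPKM (SD, n = 5 each; log2 fold change 0.70, limma adjusted p = 2.8e-07). *Scap*, which escorts SREBPs to the Golgi, fell from 7.89 ± 0.191 to 7.05 ± 0.341 FPKM (SD, n = 5 each; log2 fold change -0.14, limma adjusted p = 0.017). *Srebf1* (log2 fold change 0.12), *Insig2* (0.03) and the proteases *Mbtps1* (-0.07) and *Mbtps2* (0.01) did not pass. Of the 5 NF-Y and Sp1 family genes 0 passed, where 11.9% of all tested genes passed in either direction. Their log2 fold changes were -0.04 for *Nfya*, 0.04 for *Nfyb*, -0.05 for *Nfyc*, -0.04 for *Sp1* and -0.02 for *Sp3*.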

How the data were processed

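Per the labels and the study's methods, poly-adenylated RNA was made into directional libraries and trimmed read pairs were aligned to GRCm38 (mm10). The submitters' processing notes name HISAT2 2.0.5, featureCounts 1.5.0-p3 and DESeq2 1.32.0. The authors deposited FPKM, 1 column per sample, and 22874 rows without a gene name were left out. Fragments were recovered by multiplying FPKM by GENCODE vM21 exon length, and 96.6% of values above 0 came out whole within 0.05 fragments. No pair of replicates was as alike as counting alone would make them (chi-square over its degrees of freedom 3.05 or more). A count of 3 fragments on 1 kilobase is 0.0857 to 0.131 FPKM, which covers counting error alone.

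The 11062 genes averaging 1 FPKM or more were compared with limma 3.58.1 (R 4.3.3) after a log2(FPKM + 1) transform (eBayes with trend, condition as the only term, Benjamini-Hochberg adjustment, threshold 0.05). The FPKM stood in for the counts that the study tested. Fold changes on this scale understate those of low genes. The fit was tested on simulated data. Copies were searched with BLAST 2.17.0 (at least 95% identity over 150 bases).

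The enzymes, gene lists and tests were chosen with earlier results of these data known. Genes named are the 9 enzymes, the highest and lowest of each list, lists of up to 7 genes in full, genes that overlap or copy an enzyme, and the 5 most alike within groups. Alternatives were another pseudocount (0.1), other filters, rescaling, eBayes without trend or robust, array weights, voom, a replicate block and each sample left out.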

Additional observations from a re-analysis of the deposited data

Results flagged for a closer look

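A sample stood apart from the other 4 of its group in 4 of 36 groups examined (gap to the nearest sample over the range above 0.71), where chance gives about 1.8. StcE replicate 6 had 7.08 FPKM of *Ggps1*, with the other StcE samples at 7.54 to 7.71. The same sample had 82.2 FPKM of *Tcp1*, with the others at 87.6 to 89.8. StcE replicate 2 had the highest *Fdft1* level, 13.04 FPKM, with the rest at 12.3 to 12.4. Saline replicate 4 had the lowest *Gm3571* level, 1.85 FPKM, with the rest at 2.08 to 2.17. Each of these *Fdft1* and *Gm3571* samples stayed on its own group's side of the other group.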

How the results depend on the processing

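The enzymes were chosen on this contrast, so refits of it are no independent support. The 7 enzymes called higher were called so in all 147 refits (21 alternatives each), and *Ggps1* was above 0 and not called in its 21 refits. The median log2 fold change of the tested enzymes was 0.70, against 0.77 with a pseudocount of 0.1, 0.78 with voom on recovered fragments and 0.65 with a minimum of 0.1 FPKM or no filter. Either of these filters adds *Fdps* (log2 fold change 0.27). Leaving out samples singly gave 0.66 to 0.72, with 7 enzymes called each time and a ratio of summed FPKM of 1.73 to 1.77. The number of genes called among all tested was 1320 (709 lower, 611 higher), against 801 without a filter (409 of them lower), which tests 27024 genes. It was 793 to 1255 with 1 sample left out, the lowest without StcE replicate 3 (409 lower, 384 higher) and 838 (428 lower) without saline replicate 1. A fit that took the 4 shared replicate numbers as a block used 8 samples and called 349 genes (162 of them lower), where those samples without the block gave 885 (452 of them lower). Samples with the same number did not deviate together (r = -0.097 to 0.054). The labels do not say whether the numbers pair samples, and 4 such correlations cannot settle it. The block changed the call of none of the 8 tested enzymes. The cause of these shifts was not tested, beyond the fewer samples or added genes that the alternatives bring by construction. The median within-group r of 0.216 was 0.0724 to 0.281 with 1 sample left out. Rescaling to total recovered fragments turned the balance of calls to 628 lower and 667 higher, from 53.7% lower to 48.5%, and moved the median of all genes by less than 0.01 on the log2 scale. Of the enzymes, *Fdps* rests on the fewest fragments, 6 to 46 per sample.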
